A study of Mus musculus with 9 samples.

Results

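The SLAM family receptors (signalling lymphocytic activation molecules) were examined in activated CD8 T cells of 3 clones, named R7-I, R7-II and R7-III. The members were the 7 genes Slamf1, Slamf6, Slamf7, Cd48, Cd84, Cd244 and Ly9, taken by symbol from a table of 24060 genes, and all 7 had a row. Splenocytes came from transnuclear (TN) mice, which are made by nuclear transfer from a single ROP7-specific CD8 T cell and so carry its rearranged T cell receptor (TCR) at the endogenous loci. All 3 lines were on a Rag2-proficient BALB/c background, and each line stands for 1 clone, so a clone and its mouse line cannot be told apart. ROP7 is an antigen of the parasite Toxoplasma gondii. Cells of all 3 lines received the same treatment, overnight culture in IL-2 (10 ng/ml) with ROP7 peptide (10 µM), and CD3+ CD8+ cells that bound the H-2Ld-ROP7 tetramer were sorted. Each clone gave 3 libraries, named biological replicates, and nothing states that each came from a separate mouse, so the p-values measure the spread between these libraries. The submitters rank the affinity for the peptide as R7-I > R7-III > R7-II and the self-reactivity as R7-III > R7-I > R7-II. Ages of the mice were not given in the sources used here, and unstimulated cells were not analysed here.

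SLAM family receptors are surface proteins of the immunoglobulin superfamily found on most leukocytes. Most of them bind the same receptor on a neighbouring cell, whereas CD244 binds CD48. Tyrosine motifs in the tails of most members recruit the small adapter SAP, which brings in the kinase Fyn, or phosphatases such as SHP-1 where SAP is missing, and the family is known for tuning contacts between T cells, B cells and NK cells.

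Slamf6 and Cd84 set R7-II apart most clearly within the family. Slamf6 was about 6 to 7 times as high in R7-II as in the other clones, and Cd84 was about 2 times as high. Cd48, Ly9 and Slamf1 were higher by smaller steps on the TPM scale. After the libraries were rescaled by median-of-ratios factors, Ly9 passed the threshold used only against R7-I, and Slamf1 against neither clone. Slamf7 was level on the TPM scale, and Cd244 was at or near 0 in every library. R7-I and R7-III did not differ in any of the receptors at the threshold used.

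The 7 genes lie side by side on mouse chromosome 1, within 390.2 kb (GRCm38, RefSeq annotation, the same build as mm10). By position the order was Cd244 (171558718 to 171585316, plus strand), Ly9 (171588613 to 171607410, minus strand), Slamf7 (171632403 to 171653037, minus strand), Cd48 (171681245 to 171705258, plus strand), Slamf1 (171767131 to 171801184, plus strand), Cd84 (171839697 to 171890718, plus strand) and Slamf6 (171917458 to 171948958, plus strand). RefSeq lists 8 other features between the first and the last of them, Mir7683, n-THatg1, Tma7-ps, Gm19030, Gm22950, Gm51686, Gm52945 and Gm37065, and none had a row in the expression table. The reads carried no strand, so reads of Gm37065, which overlaps the start of Slamf6, and reads of Cd244 models that run over Ly9 in the GENCODE annotation cannot be told apart from those of the receptor.

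The promoter sequences of Slamf6 and Cd84 are shown because these receptors, next to each other in the cluster, had the largest differences of the family. They are the 250 bases before the start site in a table of RefSeq promoters (GRCm38.p6, plus strand), which for Slamf6 lies inside the gene bounds above, so that the last 4 bases of its window belong to the gene. The GENCODE annotation starts Slamf6 farther downstream, at 171917515, so the start site behind this window is uncertain. The build is of C57BL/6J mice, whereas the cells were BALB/c. The windows are Slamf6 at chr1:171917212-171917461 and Cd84 at chr1:171839447-171839696. Capitals mark matches to the motifs searched.
Slamf6: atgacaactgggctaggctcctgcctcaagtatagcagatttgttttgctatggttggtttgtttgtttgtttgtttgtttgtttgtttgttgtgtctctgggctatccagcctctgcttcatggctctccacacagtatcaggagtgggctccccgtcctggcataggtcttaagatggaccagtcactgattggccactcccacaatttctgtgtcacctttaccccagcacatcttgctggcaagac
Cd84: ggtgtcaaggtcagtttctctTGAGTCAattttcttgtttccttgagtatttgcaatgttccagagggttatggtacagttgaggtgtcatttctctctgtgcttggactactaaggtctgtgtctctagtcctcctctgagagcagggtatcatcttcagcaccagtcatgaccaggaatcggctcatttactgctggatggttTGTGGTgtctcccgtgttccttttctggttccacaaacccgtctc
Both strands were searched for TGANTCA (AP-1), TGGAAA (NFAT), TGTGGT (Runx), CTTTGA (TCF/LEF), GGGTGG (Klf/Sp) and CCGGAA (ETS). The Cd84 window held TGAGTCA, beginning 229 bases before the start site, and TGTGGT, beginning 45 bases before it, and the Slamf6 window held none of these letters. Among 32817 promoter windows of the same length, 6.75% held the AP-1 letters, 18.6% the NFAT letters, 14% the Runx letters, 13.8% the TCF/LEF letters, 28.1% the Klf/Sp letters and 12% the ETS letters. RefSeq windows were found for 6 of the 7 receptors. A match describes the letters only.

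Gene levels were deposited as TPM, a read-based level that is corrected for transcript length and summed to a fixed total per library, so levels of different genes can be set side by side. TPM keeps no read depth, and no counting interval can be given. Each library detected 13738 to 14434 genes, and libraries of the same clone correlated across genes at r = 0.992 to 0.997. Differences were tested with limma on log2(TPM + 1) over the 11330 genes whose highest TPM exceeded 1, and a gene was called at a Benjamini-Hochberg adjusted p below 0.01. The fold changes on this scale understate changes of genes with a low TPM. Over all genes the median log2 fold change of R7-II was 0.167 when set against R7-I, with 0.121 when set against R7-III, and dividing the TPM by median-of-ratios factors brought these medians to −0.0013 and −0.00234. Libraries without overlap were common among the tested genes. Against R7-I, all R7-II libraries were higher for 50.6% of genes and lower for 20.6%. Against R7-III these shares were 46.4% and 24.3%.

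Markers of other cell types moved with R7-II and bear on every comparison with this clone. The CD8 T cell markers summed to 2236 to 2295 TPM in R7-II, 1499 to 1550 in R7-I and 1717 to 1727 in R7-III, of which the co-receptor chain Cd8b1 (519, 319.8 and 326 TPM on average) and the CD3 chain Cd3g (503, 287 and 367) had the highest means over the 9 libraries, although Cd8a was above both in R7-I and R7-III (343 and 377 TPM). All 6 were called higher in R7-II than in either clone. The marker counts stand beside 40.6% of all tested genes called higher in R7-II against R7-I and 35.6% against R7-III. The 7 B cell markers, with the B cell receptor chains Cd79b and Cd79a highest over the 9 libraries, summed to 70.5, 34 and 53.8 TPM in R7-II replicates 1, 2 and 3, to 8.07 to 15.1 TPM in R7-I and to 4.88 to 7.34 TPM in R7-III, and all 7 were called higher in R7-II in both comparisons. The 4 MHC class II genes, led by Cd74 and H2-Aa, summed to 100 to 167 TPM in R7-II, 27.5 to 43.8 TPM in R7-I and 19.5 to 22.6 TPM in R7-III, and all 4 were called in both comparisons. Neither sum of R7-II overlapped with that of another clone. For 6 myeloid markers, with Lyz2 and Mpeg1 highest over the 9 libraries, the sums were 37.0, 18.8 and 75.7 TPM in R7-II, 1.43 to 3.01 TPM in R7-I and 3.18 to 4.08 TPM in R7-III. Of these, 5 of 6 were called higher in each comparison, and 4 (Lyz2, Csf1r, Mpeg1 and Tyrobp) in both. CD4 T cell markers, of which Cd40lg and Cd4 had the highest means over the 9 libraries, summed to 3.36 to 4.11 TPM in R7-I, with 4.03 to 5.81 TPM in R7-II and 5.62 to 8.01 TPM in R7-III, and NK cell markers, with Klre1 and Klrb1c highest over the 9 libraries, did not exceed 0.5 TPM in any library. No marker was at 0 in all 9 libraries, and Adgre1, of the myeloid list, had no row. B cells and myeloid cells also express SLAM family receptors, and the part of these cells in the results on R7-II was not tested. The study reports a sort purity that was short of complete. In bulk RNA, fewer cells that express a gene and less RNA per cell cannot be told apart.

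Slamf6 encodes Ly108, a self-binding receptor of T, B and NK cells that is widely used to mark less differentiated CD8 T cells. Its level was 5.37, 4.56 and 3.60 TPM in R7-I replicates 1, 2 and 3, 30.99, 19.87 and 30.67 TPM in R7-II, and 3.75, 4.02 and 3.44 TPM in R7-III. Every R7-II library lay well above all libraries of the other clones, and replicate 2 was the lowest of R7-II, as it was for the B cell, MHC class II and myeloid sums. Replicate 2 was also the lowest R7-II library for Cd84, Cd48, Ly9 and Slamf7, though not for Slamf1. The means were 4.51 ± 0.886, 27.2 ± 6.33 and 3.74 ± 0.290 TPM (SD, n = 3), a ratio of mean TPM of 6.03 against R7-I and 7.27 against R7-III. The log2 fold change was 2.34 against R7-I (SE 0.165, 95% confidence interval 1.98 to 2.71, limma adjusted p = 8.55e-07) and 2.55 against R7-III (SE 0.165, adjusted p = 4.72e-07). Within R7-I, replicate 2 had the highest B cell, MHC class II and myeloid sums and the middle Slamf6 level. In R7-II the mean of Slamf6 lay below those of Cd74 (77.9 TPM), Lyz2 (32.9 TPM) and H2-Aa (30.1 TPM) and above those of Cd79b (18.8 TPM), Cd79a (14.5 TPM) and Mpeg1 (3.87 TPM).

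Cd84 encodes a self-binding receptor of T, B and myeloid cells and platelets, and is the receptor gene nearest to Slamf6 on the chromosome. It was measured at 24.89, 22.37 and 24.02 TPM in R7-I, with 51.74, 41.58 and 49.13 TPM in R7-II, and 23.45, 25.34 and 28.25 TPM in R7-III. The R7-II libraries were all above those of both other clones, and the ranges of R7-I and R7-III overlapped. The means were 23.8 ± 1.28, 47.5 ± 5.28 and 25.7 ± 2.42 TPM (SD, n = 3). Cd84 rose by 0.96 on the log2 scale against R7-I (SE 0.0866, adjusted p = 4.36e-06) and by 0.86 against R7-III (SE 0.0866, adjusted p = 1.05e-05).

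Cd48 encodes a lipid-anchored protein that is the ligand of CD244 and a ligand of CD2, and was the most abundant member in R7-I and R7-II. Its values were 80.90, 77.60 and 78.73 TPM in R7-I, with 112.93, 104.35 and 116.41 TPM in R7-II, and 77.03, 76.67 and 79.03 TPM in R7-III. R7-II was again the high clone, without overlap, while the ranges of R7-I and R7-III overlapped. Of all tested genes, 50.6% were higher in R7-II without overlap against R7-I and 46.4% against R7-III. The means were 79.1 ± 1.68, 111 ± 6.21 and 77.6 ± 1.27 TPM (SD, n = 3), and the log2 fold changes were 0.49 against R7-I (SE 0.0417, adjusted p = 3.29e-06) and 0.51 against R7-III (SE 0.0417, adjusted p = 2.22e-06). Cd244, which encodes 2B4, the receptor for CD48 on NK cells and some effector CD8 T cells, was listed at 0.05, 0.05 and 0 TPM in R7-I, with 0.08, 0.11 and 0.15 TPM in R7-II, and 0, 0.02 and 0.05 TPM in R7-III. The ligand was thus abundant in all libraries and its receptor was near the lower end of the scale in each, and Cd244 was not tested because no library exceeded 1 TPM.

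Ly9 encodes CD229, a self-binding receptor of T and B cells. It stood at 73.20, 73.40 and 74.42 TPM in R7-I, with 92.35, 90.33 and 90.61 TPM in R7-II, and 78.28, 79.10 and 83.95 TPM in R7-III. The 3 clones did not overlap, with R7-II highest and R7-I lowest. The means were 73.7 ± 0.654, 91.1 ± 1.09 and 80.4 ± 3.06 TPM (SD, n = 3), and Ly9 rose by 0.30 on the log2 scale against R7-I (SE 0.0343, adjusted p = 2.28e-05) and by 0.18 against R7-III (SE 0.0343, adjusted p = 9.67e-04). With median-of-ratios scaling the difference from R7-III was 0.045 (adjusted p = 0.192) and was no longer called.

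Slamf1 encodes CD150, the founding self-binding receptor of the family. Its levels were 71.97, 66.75 and 66.96 TPM in R7-I, with 85.85, 76.95 and 75.94 TPM in R7-II, and 59.88, 64.09 and 68.68 TPM in R7-III. R7-II was above both clones by a small margin, its lowest library being 75.94 TPM and the highest R7-I library 71.97 TPM. The means were 68.6 ± 2.96, 79.6 ± 5.45 and 64.2 ± 4.40 TPM (SD, n = 3). The log2 fold change of 0.31 against R7-III was called (SE 0.0605, adjusted p = 0.00115), and that of 0.21 against R7-I passed narrowly (SE 0.0605, adjusted p = 0.00981). With median-of-ratios scaling these were 0.17 (adjusted p = 0.0154) and 0.025 (adjusted p = 0.690), and neither was called. The call against R7-I was also lost without any 1 of R7-I replicates 1, 2 or 3, R7-II replicates 1 or 2 or R7-III replicate 2, with adjusted p between 0.0106 and 0.0381. It was lost as well with quantile normalization (0.13, adjusted p = 0.0668), no filter on low values (0.0200), the replicate block (0.0177), only the 2 clones in the fit (0.0119) and a pseudocount of 5 (0.01001), and 6 of 18 alternatives kept it.

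Slamf7 encodes CRACC, a self-binding receptor known from NK cells, plasma cells and cytotoxic T cells, and was the one tested receptor with no call. It was 18.78, 17.28 and 19.12 TPM in R7-I, with 20.49, 16.45 and 18.62 TPM in R7-II, and 17.88, 17.74 and 19.25 TPM in R7-III. The libraries of all 3 clones overlapped. The means were 18.4 ± 0.979, 18.5 ± 2.02 and 18.3 ± 0.834 TPM (SD, n = 3), with log2 differences of 0.0054 from R7-I (95% confidence interval −0.165 to 0.176, adjusted p = 0.954) and 0.013 from R7-III (−0.158 to 0.183, adjusted p = 0.894). The sign turned with the scaling: with median-of-ratios factors the differences were −0.17 (adjusted p = 0.0345) and −0.11 (adjusted p = 0.137), and with quantile normalization −0.26 (adjusted p = 0.00592) and −0.17 (adjusted p = 0.0451), of which the one against R7-I at −0.26 passed as lower.

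**Figure D1:**
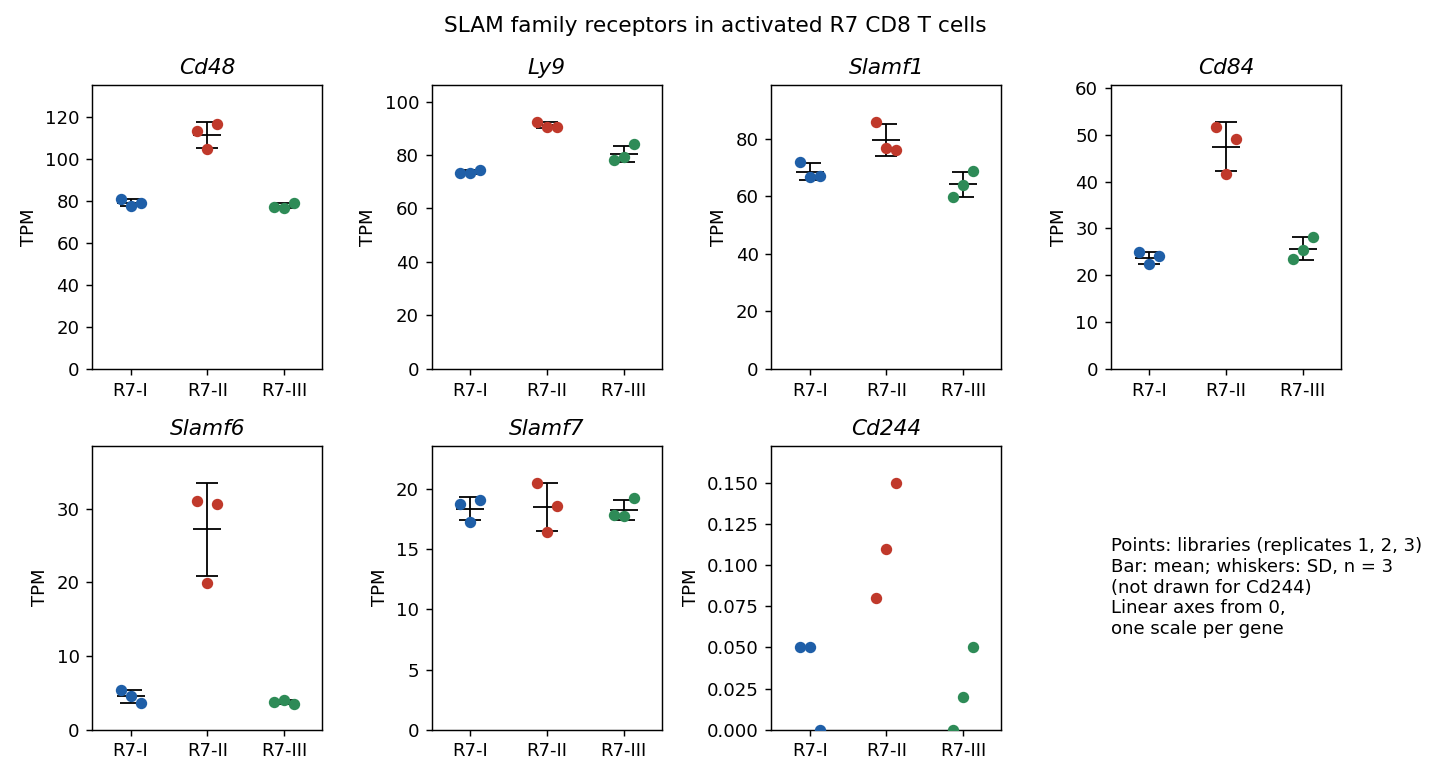
Levels of the 7 SLAM family receptors in TPM (linear axes from 0, one scale per gene) in 3 libraries per clone. Points are libraries, and bars with whiskers are the mean and SD (n = 3), not drawn for Cd244. Slamf6 in R7-II lies between 19.87 and 30.99 TPM, above all other libraries, and the Slamf7 points of the 3 clones overlap.

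Across the family, 5 of the 6 receptors tested were called higher in R7-II against R7-I and none was lower. Over all genes, 56.1% were called in this comparison, 40.6% as higher and 15.5% as lower in R7-II. The median log2 fold change of the receptors was 0.39, against 0.167 for all genes. Between R7-II and R7-III the same count held, 5 higher and 0 lower, where 53.6% of all genes were called, 35.6% as higher and 18.0% as lower, and the medians were 0.41 for the receptors and 0.121 for all genes. The pair of comparisons share the R7-II libraries and are not independent of each other. With median-of-ratios scaling, 4 receptors remained called against R7-I (Slamf6, Cd84, Cd48 and Ly9) and 3 against R7-III (Slamf6, Cd84 and Cd48). The shares of all genes above are from the TPM fit. None was taken with this scaling, so these counts have no share of all genes beside them. The scaling changed the part of called genes that was higher in R7-II from 72.4% to 46.2% against R7-I, and from 66.4% to 47% against R7-III. For Slamf6, Cd84 and Cd48 the log2 fold changes with this scaling were 2.17, 0.78 and 0.30 against R7-I, and 2.42, 0.73 and 0.38 against R7-III.

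For R7-III set against R7-I, limma called 0 of the 6 receptors, and 1 of them, Ly9, had an unadjusted p under 0.05. Of all genes, 8.41% were called here, 6.96% as higher and 1.45% as lower in R7-III. The Ly9 libraries of R7-III were all above those of R7-I, with a log2 difference of 0.12 (95% confidence interval 0.049 to 0.20, adjusted p = 0.0294). Of all tested genes, 29.5% were higher in R7-III without overlap. For Slamf6 the difference was −0.21 (−0.572 to 0.158, adjusted p = 0.428), and for Cd84 it was 0.11 (−0.0867 to 0.297, adjusted p = 0.447). Those of Slamf1, Cd48 and Slamf7 were −0.094, −0.027 and −0.0073. The receptors had a median of −0.017 in this comparison and all genes one of 0.0447.

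**Figure D2:**
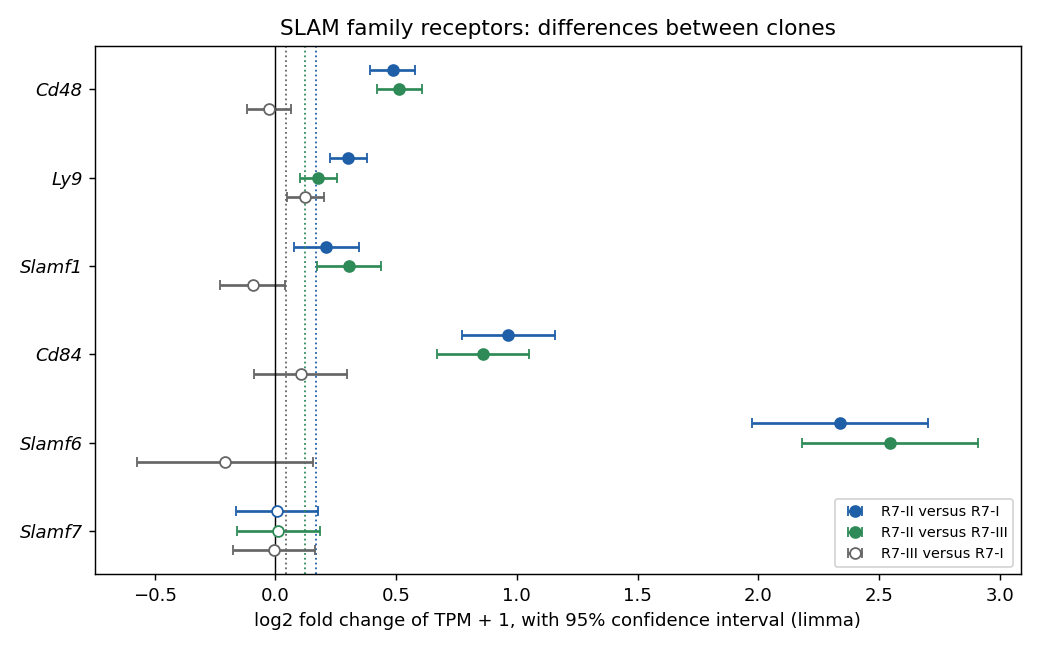
Log2 fold changes of TPM + 1 for the 6 tested receptors with 95% confidence intervals from limma, in the comparisons R7-II versus R7-I, R7-II versus R7-III and R7-III versus R7-I. Filled points passed the adjusted p of 0.01, and dotted lines mark the median of all genes in the comparison of the same colour. The Slamf6 intervals against R7-I (1.98 to 2.71) and R7-III lie far to the right of the other receptors.

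The make-up of the family differed in R7-II. The 7 receptors summed to 268 ± 6.65 TPM in R7-I, with 375 ± 23.1 TPM in R7-II, as against 270 ± 11.5 TPM in R7-III (SD, n = 3). Slamf6 made up 1.68% of this sum in R7-I, 7.19% in R7-II and 1.39% in R7-III, and Cd84 8.86%, 12.6% and 9.50%. The share of Cd48 was close to constant (29.5%, 29.7% and 28.8%), while those of Slamf7 (6.86%, 4.93% and 6.78%) and Slamf1 (25.6%, 21.2% and 23.8%) were lowest in R7-II. Ly9 took 27.5%, 24.3% and 29.8%. These shares divide genes within a library and do not change with the scaling of the library.

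The order of the levels was Cd48, Ly9, Slamf1, Cd84, Slamf7, Slamf6 and Cd244 in R7-I, and no neighbours in it overlapped. In R7-II Slamf6 stood above Slamf7, with overlapping ranges (19.87 to 30.99 and 16.45 to 20.49 TPM), although Slamf6 was the higher of the pair in each library. The ratio of Slamf6 to Slamf7 was 1.21 to 1.65 in R7-II, 0.188 to 0.286 in R7-I and 0.179 to 0.227 in R7-III. In R7-III Ly9 came before Cd48, and their ranges overlapped (78.28 to 83.95 and 76.67 to 79.03 TPM).

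**Figure D3:**
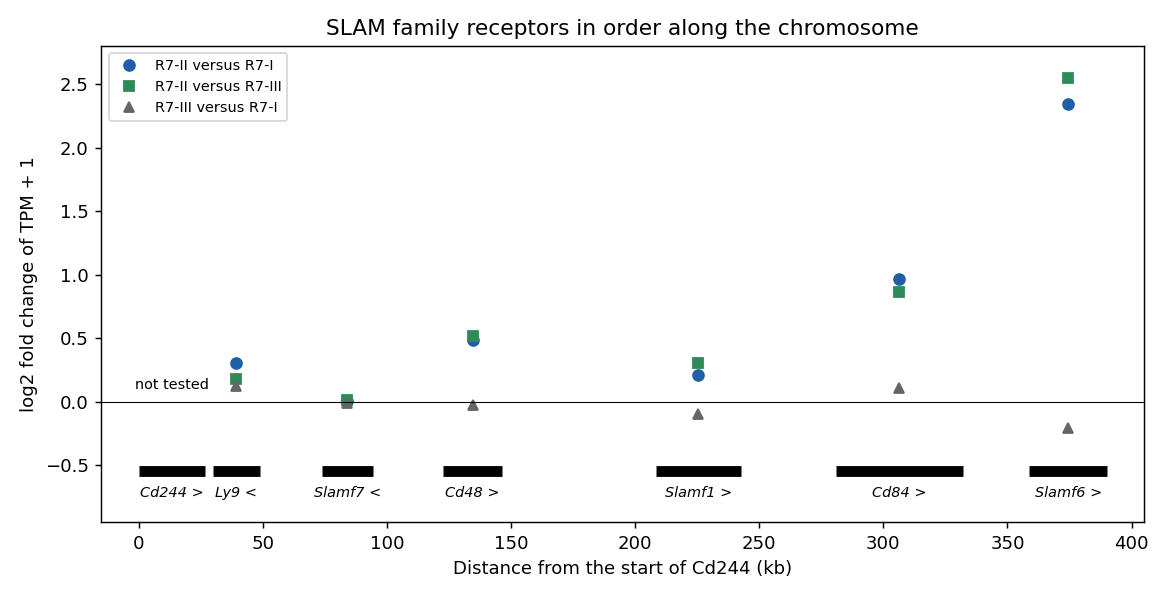
Log2 fold changes of the receptors (vertical axis, TPM + 1) against their distance in kb from the start of Cd244 on chromosome 1 (horizontal axis), with bars for the genes and arrowheads for the strand. The largest values belong to Slamf6 and Cd84 at the right end of the cluster, and Slamf7 lies near 0 between Ly9 and Cd48.

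Along the chromosome, the receptors with the largest differences were the last in the row. Cd84 and Slamf6 start 281 and 358.7 kb from the start of Cd244, and their log2 fold changes against R7-I were 0.96 and 2.34. Slamf7, which differed least, lies between Ly9 (0.30) and Cd48 (0.49). Position is given as a description, since 6 tested genes of 1 cluster allow no test of it.

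The genes whose profile over the 9 libraries was most like that of Slamf6 were sought among all tested genes by the largest gap between centred log2(TPM + 1) values. They were Tcp11l2 (largest gap 0.196, with 5.73, 34.2 and 4.38 TPM as means of the clones in numerical order), Sema4f, which encodes a semaphorin (0.260, with 0.683, 7.67 and 0.757 TPM), and Socs3, a feedback inhibitor of cytokine signalling (0.308, with 3.97, 24.7 and 3.22 TPM). The clone means of no other receptor spanned more than 1 on the log2 scale, so no such search was made for them.

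The adapter SAP, encoded by Sh2d1a, was lower in R7-II, opposite to the 5 receptors called. It was 23.65, 21.85 and 22.08 TPM in R7-I, with 11.82, 11.52 and 15.01 TPM in R7-II, and 25.03, 19.58 and 15.91 TPM in R7-III. All R7-II libraries were below those of both clones, and R7-III replicate 3 came nearest to them. The means were 22.5 ± 0.980, 12.8 ± 1.93 and 20.2 ± 4.59 TPM (SD, n = 3), and Sh2d1a fell by 0.78 on the log2 scale against R7-I (SE 0.140, adjusted p = 5.66e-04) and by 0.61 against R7-III (SE 0.140, adjusted p = 0.00299). Set against the summed receptors, SAP was 8.40% ± 0.170 in R7-I, 3.41% ± 0.479 in R7-II and 7.53% ± 2.00 in R7-III. The call against R7-III was lost without R7-II replicate 1 (adjusted p = 0.0140), R7-II replicate 2 (0.0140) or R7-III replicate 2 (0.0108). It was lost as well with only the 2 clones in the fit (0.0123), and 14 of 18 alternatives kept it. The related adapters EAT-2 (Sh2d1b1, 0 to 0.21 TPM) and ERT (Sh2d1b2, listed at 0 in all 9 libraries) were below the filter, as were the family members Slamf8 (0 to 0.07 TPM) and Slamf9 (0 to 0.40 TPM).

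Cd2, a related adhesion receptor that binds CD48 in mice, was 48.09, 49.80 and 36.22 TPM in R7-I, with 70.64, 51.45 and 63.17 TPM in R7-II, and 34.75, 45.02 and 32.44 TPM in R7-III. The R7-II libraries were the highest, though replicate 2 exceeded the top R7-I library only slightly. Cd2 rose against R7-III (log2 fold change 0.71, SE 0.151, adjusted p = 0.00183), and the value against R7-I was 0.46 (SE 0.151, adjusted p = 0.0197). Without R7-II replicate 2 the latter passed, at 0.58 (adjusted p = 0.00859).

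The signalling genes were 3 other receptors of the CD2 and SLAM families, 3 SAP family adapters, 3 kinases, 3 phosphatases and 12 downstream proteins. Some of them, such as Plcg1, also act downstream of the TCR, so their counts are not particular to SLAM receptors. Of these 24 signalling genes, 20 were tested. Between R7-II and R7-I, 11 were higher in R7-II, 2 lower and 7 not called, with a median of 0.26, where 40.6% of all genes were called higher and 15.5% lower. Between R7-II and R7-III, 15 were higher, 3 lower and 2 (Ptpn11 and Dok1) not called, with a median of 0.27, beside 35.6% and 18.0% of all genes. Both medians lay above those of all genes, 0.167 and 0.121. With median-of-ratios scaling the split was 8 higher and 4 lower in both comparisons, and of all genes called 46.2% were then higher in R7-II against R7-I and 47% against R7-III. The share of all genes called with this scaling was not taken.

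The counts by role stand beside the same shares of all genes. The 3 kinases of the list (Fyn, Lck and Csk) were all called higher in R7-II in both comparisons. Their log2 fold changes against R7-I and then R7-III were 0.196 and 0.216 for Fyn, 0.393 and 0.449 for Lck, and 0.218 and 0.108 for Csk. The medians of all genes were 0.167 and 0.121, so Fyn and Csk lay near them, and Csk lay below that of the R7-III comparison. Of 3 phosphatases, Inpp5d, which encodes the lipid phosphatase SHIP-1, was higher in both comparisons, and Ptpn6, which encodes SHP-1, was lower than in R7-III. Ptpn6 had means of 260.3 ± 7.0 TPM in R7-I, with 247 ± 19.4 TPM in R7-II, as against 329 ± 9.53 TPM in R7-III (SD, n = 3), and a log2 fold change of −0.42 against R7-III (SE 0.0499, adjusted p = 3.57e-05) and −0.080 against R7-I (adjusted p = 0.177). With median-of-ratios scaling the latter was −0.27 and passed (adjusted p = 0.00314). Of 12 downstream proteins, 7 were higher and 1 lower than in R7-I, and 10 were higher and 1 lower than in R7-III.

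Dok2, an adapter that restrains Ras signalling, had the largest change of the signalling genes. It was 18.43, 17.62 and 17.96 TPM in R7-I, with 67.79, 65.09 and 59.85 TPM in R7-II, and 23.73, 23.25 and 20.32 TPM in R7-III. R7-II stood far above the other clones, with log2 fold changes of 1.78 against R7-I (SE 0.0649, adjusted p = 2.12e-08) and 1.48 against R7-III (SE 0.0649, adjusted p = 7.09e-08). Prkcq, the protein kinase C theta of the T cell synapse, had means of 58.7 ± 2.16, 105 ± 3.89 and 67.3 ± 1.98 TPM in the clones in numerical order, and rose by 0.82 and 0.63 on the log2 scale against R7-I and then R7-III (adjusted p = 1.01e-07 and 5.03e-07). Plcg1, a phospholipase that acts downstream of the TCR, had means of 27.1 ± 1.2, 50.3 ± 4.29 and 31.1 ± 0.373 TPM and rose by 0.87 and 0.68 (adjusted p = 8.28e-07 and 4.57e-06). For both genes all R7-II libraries lay above those of the other clones. The lower downstream gene was Nfkb1, an NF-κB subunit, named here like Inpp5d, Ptpn6, Ptpn11 and Dok1 after the values were seen, with means of 729.7 ± 10.5, 564 ± 3.53 and 628 ± 4.79 TPM (SD, n = 3) and log2 fold changes of −0.37 and −0.16 (adjusted p = 2.44e-07 and 1.03e-04). The difference of Nfkb1 from R7-III was −0.057 with quantile normalization (adjusted p = 0.0715).

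**Figure D4:**
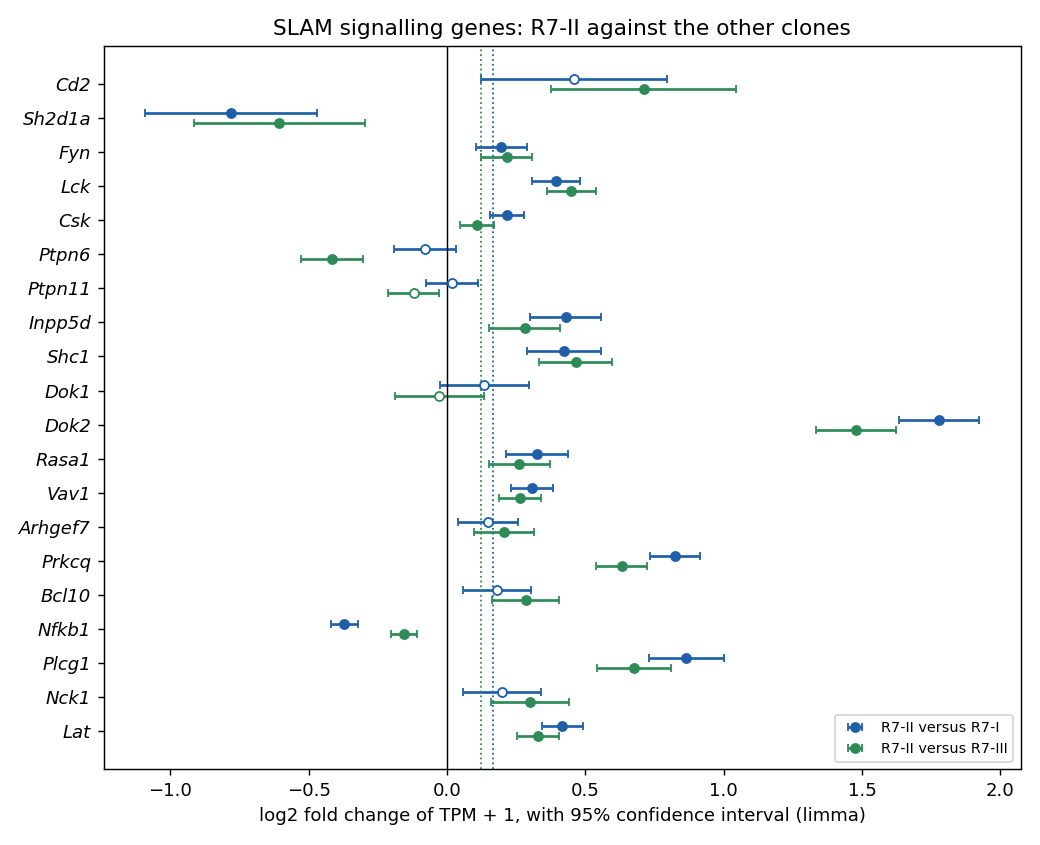
Log2 fold changes of TPM + 1 with 95% confidence intervals from limma for the 20 tested SLAM signalling genes, for R7-II set against each other clone. Filled points passed the adjusted p of 0.01 and dotted lines mark the median of all genes. Dok2 lies farthest to the right (1.78 and 1.48), and Sh2d1a farthest to the left (−0.78 and −0.61).

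For R7-III set against R7-I, 2 of the 20 signalling genes were higher in R7-III and 1 lower, with a median of 0.054, where 8.41% of all genes were called. Ptpn6 was higher in R7-III by 0.34 on the log2 scale (SE 0.0499, adjusted p = 0.00134), Nfkb1 was lower (−0.22, adjusted p = 1.44e-04), and Prkcq was higher by 0.19 (adjusted p = 0.00937). The Prkcq call was lost without any 1 of R7-I replicates 1, 2 or 3, R7-II replicate 1 or R7-III replicates 1, 2 or 3, and with no filter, quantile normalization or the replicate block (adjusted p = 0.0149, 0.0308 and 0.0189). With median-of-ratios scaling the calls of both Ptpn6 (0.28, adjusted p = 0.0111) and Prkcq (0.14, adjusted p = 0.0401) were lost, which left 0 higher and 1 lower. Dok2 was 0.30 higher in R7-III and just missed the threshold (adjusted p = 0.0101), passing without R7-II replicate 1, R7-II replicate 3 or R7-III replicate 3 (lowest adjusted p = 0.00476), and with a pseudocount of 0.1, the stricter filter or the replicate block (0.00966, 0.00861 and 0.00694).

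**Figure D5:**
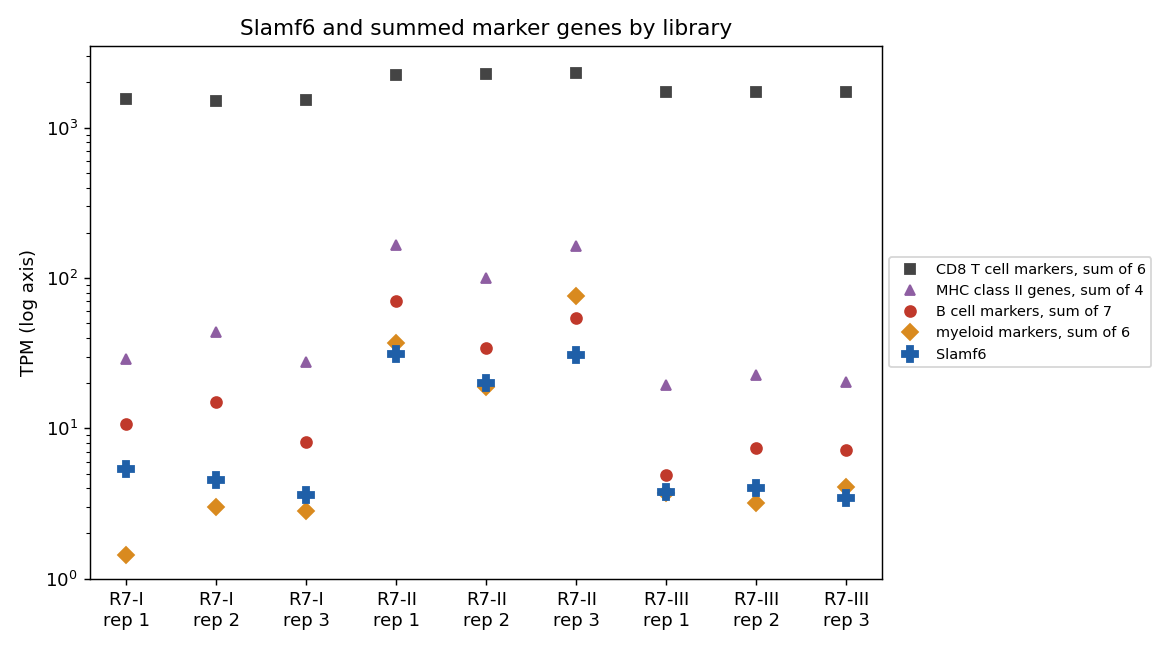
Slamf6 and summed marker genes in each of the 9 libraries, in TPM on a log axis. In R7-II, Slamf6 (19.87 to 30.99 TPM) and the B cell, MHC class II and myeloid sums are all above their levels in the other clones and all lowest in replicate 2. The CD8 T cell sum is also highest in R7-II and differs little between the libraries of a clone.

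Slamf6 and the B cell, MHC class II and myeloid sums were thus high in the same clone. The CD8 T cell sum was also highest there, at 2236 to 2295 TPM, without overlap with the other clones. This was not so for the CD4 T cell and NK cell sums. The CD4 T cell sum was made up mostly of Cd40lg, with means of 2.65, 2.18 and 5.41 TPM in the clones in numerical order. The other genes of that list had their highest mean in R7-II, at low levels. These were Cd4 (0.30, 0.98 and 0.377 TPM), Zbtb7b (0.26, 0.743 and 0.593 TPM) and Foxp3 (0.423, 0.90 and 0.257 TPM). Slamf6 was close to the same in R7-II replicates 1 and 3 and lower in replicate 2, and the MHC class II sum had the same order with like values (167, 100 and 163 TPM in replicates 1, 2 and 3). The B cell sum was higher in replicate 1 than in replicate 3 (70.5 and 53.8 TPM) and the myeloid sum higher in replicate 3 (37.0 and 75.7 TPM), with both lowest in replicate 2. Between R7-I and R7-III, where the B cell sums did not overlap (8.07 to 15.1 and 4.88 to 7.34 TPM) and neither did the MHC class II sums (27.5 to 43.8 and 19.5 to 22.6 TPM), the Slamf6 ranges overlapped (3.60 to 5.37 and 3.44 to 4.02 TPM). What share of the Slamf6 signal came from other cells was not tested.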

How the data were processed

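RNA of sorted, peptide-activated CD8 T cells was sequenced in 9 libraries, 3 per clone. The authors prepared unstranded TruSeq libraries, estimated gene levels with RSEM 1.2.11 on RefSeq genes of mm10 and deposited TPM values, rounded to 2 decimals. They tested counts with DESeq2 1.8.1, and those counts were not used here. The build is of C57BL/6J mice, whereas the cells were BALB/c. TPM keeps no depth, so precision rests on the spread between libraries. In the fit below this spread was shared by the 3 clones, so a gene had the same SE in each comparison.

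From the TPM values, limma 3.58.1 in R 4.3.3 (lmFit, eBayes with trend) was applied to log2(TPM + 1), using 1 fit of the 9 libraries, over 11330 genes with a maximum TPM above 1, with Benjamini-Hochberg adjustment over all of them and a threshold of 0.01. The fit was tested on simulated data. The receptors, the signalling and marker lists and the tests were chosen with earlier results of these data known. Genes named by rule were all receptors, Cd2, the SAP family adapters, signalling genes past the threshold with a log2 change above 0.5, the 2 most abundant markers per list, genes between the receptors, and the 3 nearest profiles of receptors spanning over 1. Named outside this rule were Fyn, Lck, Csk, Inpp5d, Ptpn6, Ptpn11, Dok1, Nfkb1, Slamf8 and Slamf9. The same holds for the markers Cd8a, Csf1r, Tyrobp, Adgre1, Zbtb7b and Foxp3. Alternatives were the pseudocount, filter, scaling, clones in the fit, replicate block, threshold and leaving out each library.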

Additional observations from a re-analysis of the deposited data

How the results depend on the processing

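The count of receptors called higher in R7-II against R7-I was 5, and 4 to 5 when any 1 library was left out. Against R7-III it was 5 and stayed 5 without any 1 library, but was 3 with median-of-ratios scaling. Between R7-III and R7-I it was 0, also without any 1 library, and 1 at an adjusted p of 0.05. The signalling genes called between R7-III and R7-I were 3, against 1 with median-of-ratios scaling, 6 at an adjusted p of 0.05 and 2 to 4 without 1 library. Those called in the comparisons with R7-II were 13 to 15 (R7-I) and 14 to 18 (R7-III) without 1 library. Shares of all genes called were taken only for the main fit, so the counts under alternatives have no such share beside them. Of 702 single gene values under alternatives, 646 kept their direction and side of the threshold, 31 lost the call, 11 gained one and 14 turned sign, all of Slamf7. Its difference from R7-I was −0.17 with median-of-ratios scaling, −0.26 with quantile normalization and −0.067 to 0.084 without 1 library. From R7-III it was −0.11, −0.17 and −0.059 to 0.091, and for R7-III against R7-I −0.049 to 0.020 without 1 library. The scaling divides the R7-II libraries by larger factors, which lowers every gene there. The cause of the other changes was not tested. The calls of Slamf6, Cd84 and Cd48 in both R7-II comparisons held under all 18 alternatives, with adjusted p of Slamf6 between 1.92e-07 and 3.41e-05. The threshold of 0.05, which is among the 18, judges the main fit more loosely and could not remove a call.

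The replicate numbers were not taken as pairs, since deviations from the clone means correlated at −0.0449 to 0.0888 for equal numbers and −0.0948 to 0.0649 for unequal ones, and not every library correlated best with its own number. With the replicate number as a block, 4 receptors were called against R7-I in place of 5, 5 against R7-III and 0 when R7-III was set against R7-I. Without depth, counting error cannot be separated from the spread of libraries, which weighs most on Cd244.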
